A study of Mus musculus with 16 samples.

Results

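The MOR187 receptors are a family of mouse odorant receptors, and a Clariom S probe set whose annotated symbol was Olfr1008, Olfr1048, Olfr1049, Olfr1051 or Olfr1053 was taken as a member. Each symbol matched 1 probe set, which gave 5 members among 1080 odorant receptor genes and 22206 probe sets. The family was chosen with measured values of these arrays in view, and which values decided the choice is not recorded. The values of its members are therefore given as a description in every comparison. The limma calls of members given below are part of that description and are no test of the family.

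The study exposed S100a5-tauGFP mice to the ketone 2-hexanone (odor) or to filtered air alone (vehicle) and measured RNA of cells sorted from the dissociated olfactory mucosa by GFP fluorescence. The 24 mice were of both sexes and 7 to 12 weeks old, were housed singly for 40 h under clean air at 3.1 L per min, and received 10 s pulses every 20 min after the first 26 h. A pool held the cells of 3 mice, and 4 pools per treatment each gave a GFP+ and a GFP- sample, so that 16 arrays fell into vehicle GFP-, vehicle GFP+, odor GFP- and odor GFP+ groups of 4. All groups carried the same reporter, a fusion of tau and GFP under the control of S100a5, and neither its zygosity nor the sorting gates were stated in the labels. A pool mixes animals, so the spread given below is that between pools and not between mice.

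Odorant receptors are G protein-coupled receptors in the cilia of olfactory sensory neurons. A mature neuron expresses a single receptor gene, so the level of a receptor transcript in a mixed sample depends on how many neurons chose that gene and on how much of it each neuron holds; these cannot be told apart in bulk samples. Odorant binding activates the G protein subunit Gnal and the adenylate cyclase Adcy3, whose cAMP opens the cyclic nucleotide-gated channel of Cnga2, Cnga4 and Cngb1, and calcium then opens the chloride channel Ano2. S100a5 encodes a calcium-binding protein that rises in olfactory neurons with activity, so GFP marks neurons that have been active. The question put by the design was which receptors become more abundant among GFP+ cells after the odor. MOR numbers group receptors by sequence likeness, and the sources used here do not give ligands of this family.

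The reference gene table gave the name MOR187-3 to Olfr1008, MOR187-2 to Olfr1048, MOR187-1 to Olfr1049, MOR187-5 to Olfr1051 and MOR187-4 to Olfr1053. No other gene in it carried a MOR187 name. The family lies on chromosome 2, where 282 receptors had a probe set. Olfr1048, Olfr1049, Olfr1051 and Olfr1053 formed 1 group of neighbours, interrupted by Olfr1052, a receptor of another family (MOR172-1). Olfr1008 lay apart from them, with 31 receptors between it and Olfr1048. Olfr1053 has the older symbol Olfr1053-ps1, and the reference lists it as protein coding. Its gene model of 943 bases was the only one of the family whose length is no multiple of 3. Over all 1080 receptor models, 79.1% had a length that is a multiple of 3.

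Windows of 300 bases around the annotated gene start (250 before it and 50 after it, RefSeq, GRCm38.p6) were given for 4 of the 5 genes, all but Olfr1008. Of 944 such receptor windows, 72.6% had ATG at the gene start, as did 3 of the 4 MOR187 windows. Most receptor models thus begin at the coding start, and the windows need not hold the transcription start. Olfr1049 and Olfr1051 are shown because their windows were near copies and because their signals were alike on the arrays (below). In both sequences capitals mark the 18 bases that differ from the other gene or have no partner in it, and everything in lower case is shared. The window of Olfr1049 lies at chr2:86255642-86255941 and that of Olfr1051 at chr2:86276436-86276735, both on the minus strand and written 5′ to 3′.
Olfr1049: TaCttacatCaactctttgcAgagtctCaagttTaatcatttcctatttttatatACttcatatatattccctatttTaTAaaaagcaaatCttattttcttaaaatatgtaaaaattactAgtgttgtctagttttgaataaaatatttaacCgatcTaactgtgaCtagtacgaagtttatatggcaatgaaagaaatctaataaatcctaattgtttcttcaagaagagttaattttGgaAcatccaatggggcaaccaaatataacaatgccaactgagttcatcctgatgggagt
Olfr1051: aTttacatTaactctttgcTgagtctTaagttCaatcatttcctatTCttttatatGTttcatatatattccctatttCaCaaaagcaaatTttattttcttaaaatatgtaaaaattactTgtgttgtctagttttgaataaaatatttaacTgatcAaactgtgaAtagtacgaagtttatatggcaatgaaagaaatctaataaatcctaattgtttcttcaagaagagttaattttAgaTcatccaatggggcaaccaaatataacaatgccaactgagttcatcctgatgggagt
The alignment of these windows had 301 columns, of which 282 were identical (93.7%), 16 were substituted and 3 were gaps. All 50 bases from the gene start on were identical, and the longest identical run was 72 bases. The other 5 pairs of MOR187 windows were 52.8% to 59.4% identical. The probe sequences of Olfr1049 and Olfr1051 were not used here, so signal from the one transcript on the other probe set was not tested, and the values of these 2 receptors are uncertain to that extent.

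The share of A and T was 59.3% (Olfr1048), 71.7% (Olfr1049), 72.7% (Olfr1051) and 73.3% (Olfr1053). All 4 windows were above the median of 47.3% over all 32851 windows. Olfr1048 was under the median of 65.0% over receptor windows and the others were above it. On both strands, the palindromic homeodomain core TAATTA was found in the window of Olfr1053 alone, and in 18.6% of receptor windows and 5.29% of all windows. The letters CCCNNGGG, the core bound by Olf/EBF factors, were in none of the 4 windows, in 3.07% of receptor windows and in 13.7% of all windows.

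Values below are the deposited log2 signals, in which a difference of 1 is a 2-fold change. They run from 1.25 to 19.81, above what a 16-bit scanner gives, so an unstated transformation acts on every fold. The background floor of an array is the highest of its 23 antigenomic background bins and lay between 6.16 and 7.33. Where all arrays of the dimmer group lay under it, a fold is given as a lower bound against the floor, and a pair of groups that both lay under it has no fold. The median over probe sets was lower on GFP+ arrays (5.70 to 5.76) than on GFP- arrays (6.06 to 6.12). S100a5 itself was 1.38 ± 0.25 (SE, n = 4 against 4; limma adjusted p = 0.000514) higher in GFP+ than in GFP- cells of vehicle pools and 1.61 ± 0.25 (9.83e-05) in odor pools. Cells were sorted on a reporter under the control of S100a5, so the direction of this difference was set by the sort. Omp, a marker of mature neurons, did not pass (0.01 ± 0.14 and 0.09 ± 0.14). Its signal lay between 19.19 and 19.50 on all arrays, close to the highest value of 19.81. Whether a difference could show at that level was not tested. The mean of 8 mature neuron markers was 17.5 to 18.0 on all arrays, while the mean of 6 leukocyte markers was 13.6 to 16.1 in GFP- and 5.12 to 6.36 in GFP+ arrays. All 6 leukocyte markers and 5 of 6 sustentacular markers fell in GFP+ cells in both treatments, as did 4 of 5 immature neuron markers in vehicle and 3 of 5 in odor. Ptprc, S100a8 and Spi1 were under the floor on every GFP+ array. The part of these cell types in the receptor differences was not tested.

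Only Olfr1049 and Olfr1051 stood above the floor on every GFP+ array. Of all 16 arrays, Olfr1051 was above it on 10, Olfr1049 on 8, Olfr1048 on 6, Olfr1008 on 3 and Olfr1053 on 0.

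**Figure D1:**
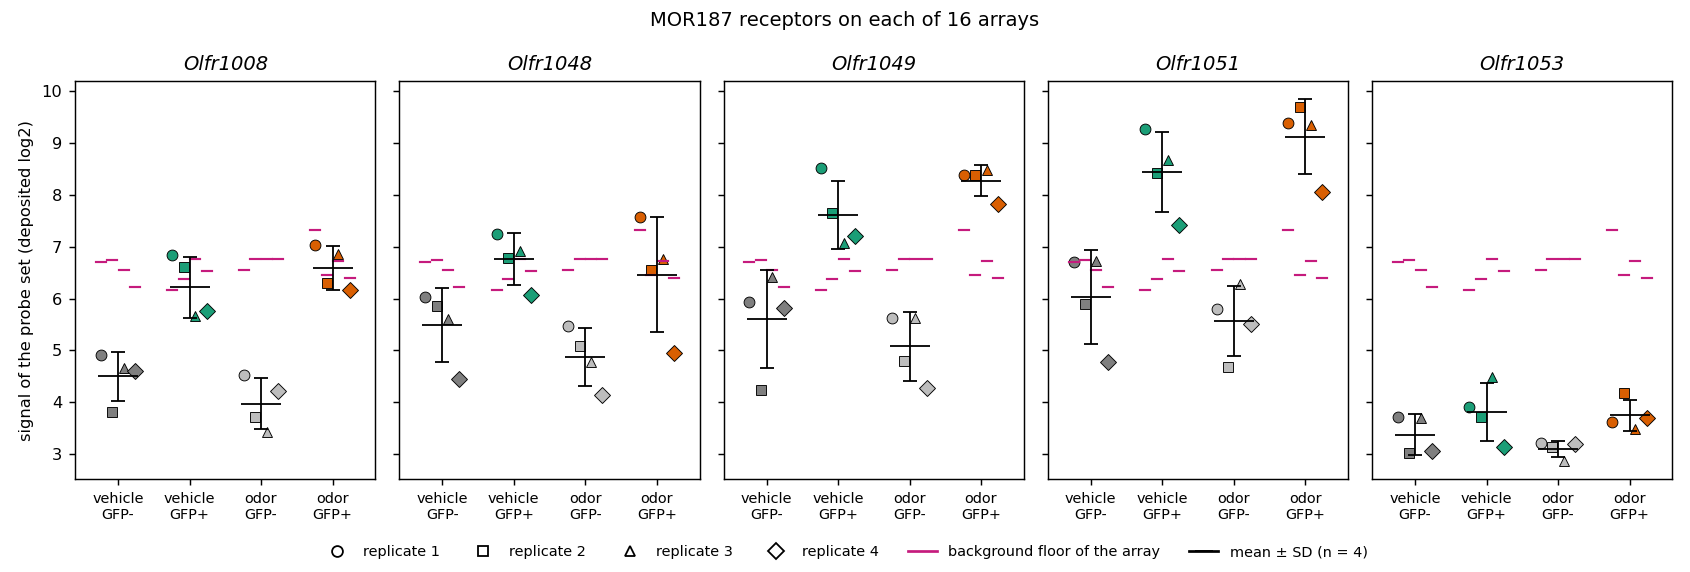
Deposited log2 signal (vertical axis) of each MOR187 receptor on each of 16 arrays, by group; symbols give the replicate number, short magenta lines the background floor of that array, and black bars the mean ± SD of 4 arrays. The GFP+ samples of Olfr1049 and Olfr1051 lie above all GFP- samples and above the floor, and Olfr1053 lies under it throughout; heights are not comparable between receptors, whose probes differ.

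Olfr1051 gave 9.26, 8.42, 8.67 and 7.42 in GFP+ cells of vehicle replicates 1 to 4, and 6.71, 5.90, 6.73 and 4.79 in their GFP- cells. In odor replicates 1 to 4 it gave 9.39, 9.68, 9.35 and 8.06 in GFP+ and 5.80, 4.68, 6.27 and 5.51 in GFP- cells. All 8 GFP+ samples were above all 8 GFP- samples, and replicate 4 was the lowest GFP+ sample in both treatments. The mean difference between GFP+ and GFP- was 2.41 ± 0.47 (SE; 95% confidence interval 1.42 to 3.40) in vehicle and 3.56 ± 0.47 (2.56 to 4.55) in odor. In odor the bound was at least 5.30-fold. In vehicle, where 2 of the 4 GFP- arrays were above the floor, setting the remaining arrays at their floor gave an untested fold of 3.59.

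Olfr1049 gave 8.51, 7.65, 7.07 and 7.21 in GFP+ cells of vehicle replicates 1 to 4, and 5.94, 4.23, 6.42 and 5.83 in their GFP- cells. In odor it gave 8.38, 8.38, 8.49 and 7.83 in GFP+ and 5.63, 4.79, 5.63 and 4.27 in GFP- cells. The GFP+ and GFP- samples did not overlap in either treatment, and 3 of the 4 odor GFP+ values lay between 8.38 and 8.49. The difference was 2.00 ± 0.42 (SE; interval 1.12 to 2.89) in vehicle, at least 2.08-fold, and 3.19 ± 0.42 (2.31 to 4.07) in odor, at least 2.94-fold.

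Olfr1008, the member that lies apart from the others on the chromosome, gave 6.83, 6.61, 5.67 and 5.77 in GFP+ cells of vehicle replicates 1 to 4, and 4.91, 3.82, 4.67 and 4.61 in their GFP- cells. In odor it gave 7.03, 6.30, 6.86 and 6.16 in GFP+ and 4.53, 3.72, 3.43 and 4.23 in GFP- cells. All 8 GFP+ samples were above all 8 GFP- samples, but only 2 vehicle and 1 odor GFP+ arrays were above the floor, so no fold is given. The measured difference was 1.72 ± 0.32 (SE; interval 1.05 to 2.39) in vehicle and 2.61 ± 0.32 (1.94 to 3.29) in odor. With all arrays raised to their floor it was 0.13 and 0.05.

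Olfr1048 gave 7.25, 6.79, 6.92 and 6.06 in GFP+ cells of vehicle replicates 1 to 4, and 6.03, 5.85, 5.61 and 4.44 in their GFP- cells. In odor it gave 7.58, 6.55, 6.77 and 4.95 in GFP+ and 5.48, 5.08, 4.77 and 4.14 in GFP- cells. In vehicle the groups were separate by a narrow margin, 6.06 against 6.03, and in odor they overlapped through GFP+ replicate 4. The difference was 1.27 ± 0.46 (SE; interval 0.30 to 2.24) in vehicle, at least 1.15-fold, and 1.59 ± 0.46 (0.62 to 2.56) in odor, where the bound gave no fold.

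Olfr1053 gave 3.14 to 4.49 in the GFP+ and 3.03 to 3.72 in the GFP- samples of vehicle pools, and 3.48 to 4.18 and 2.86 to 3.21 in those of odor pools. No array was above its floor, so these values carry only a bound. The difference was 0.44 ± 0.26 (SE; interval -0.11 to 0.98) with overlap in vehicle and 0.65 ± 0.26 (0.10 to 1.19) without overlap in odor.

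Since both fractions of a pool came from the same mice, the sort difference can be read pool by pool. It was above 0 for all 5 receptors in 8 of 8 pools. Signs by pool are not given over all probe sets, and the nearest count is that of mean differences, which is less strict. The mean sort difference was above 0 for 14350 of all 22206 probe sets in vehicle and 14338 in odor. Among the 1075 other receptors it was above 0 for 656 and 661. For Olfr1051 the sort difference by pool was 2.55, 2.52, 1.94 and 2.63 in vehicle pools 1 to 4 and 3.60, 5.01, 3.08 and 2.55 in odor pools. Odor pool 4 lay within the range of the vehicle pools and the other 3 odor pools above it. For Olfr1049 it was 2.57, 3.41, 0.65 and 1.38 in vehicle and 2.75, 3.59, 2.86 and 3.56 in odor pools, so the odor pools lay close together and vehicle pools 3 and 4 were low. For Olfr1008 it was 1.92, 2.79, 1.00 and 1.16 in vehicle and 2.50, 2.58, 3.44 and 1.93 in odor pools, with overlap. Olfr1048 (0.94 to 1.62 in vehicle, 0.81 to 2.11 in odor) and Olfr1053 (0.08 to 0.79 and 0.42 to 1.04) overlapped too.

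**Figure D2:**
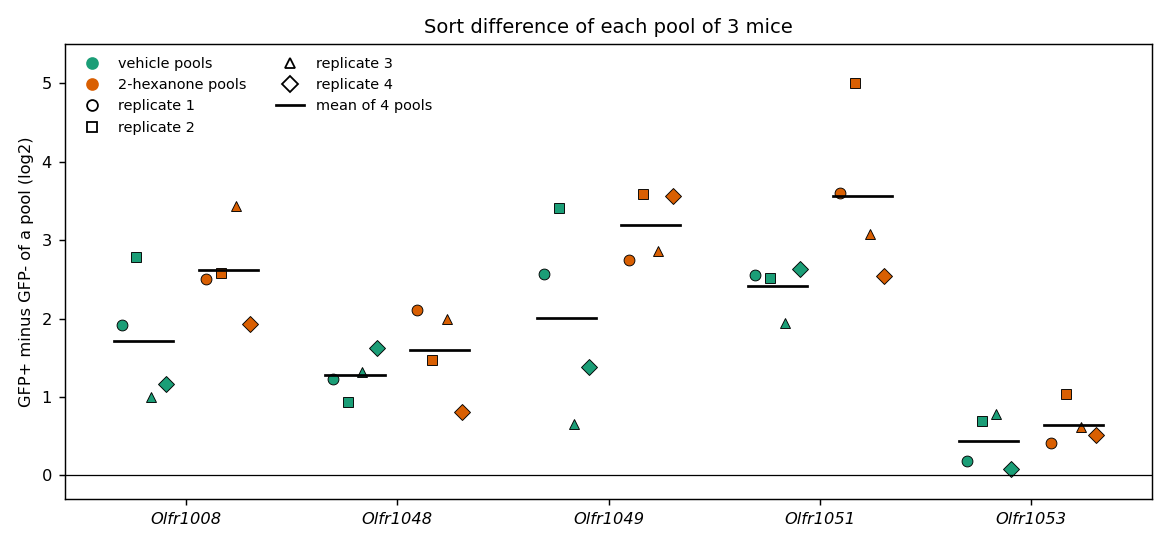
Difference of log2 signal between GFP+ and GFP- cells of the same pool (vertical axis) for each MOR187 receptor, in 4 vehicle and 4 odor pools; symbols give the replicate number and black lines the mean of 4 pools. All points lie above 0, and the points of vehicle and odor pools overlap for every receptor; the highest is Olfr1051 in odor pool 2 at 5.01.

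For the background of these differences, limma over all probe sets called 5.83% higher and 9.86% lower in GFP+ than in GFP- cells of vehicle pools (Benjamini-Hochberg adjusted p below 0.05), and 5.29% higher and 9.56% lower in odor pools. Of the 5 MOR187 receptors, 3 were called higher in vehicle (Olfr1008, Olfr1049 and Olfr1051), 4 in odor (also Olfr1048) and 0 lower. In vehicle and odor, 4 and 5 of them had an unadjusted p under 0.05. So had 6117 and 5854 of all 22206 probe sets, and 741 and 751 of the 1075 other receptors. As the family was chosen on measured values, nothing is read from these counts. With the pool as a random block, the replicate number as a block, quantile normalization, only the arrays compared or odor replicate 4 left out, Olfr1048 was also called in vehicle; with the pool as a fixed block, it was called there and Olfr1053 was called in odor. Without odor replicate 1, 2 or 3, or without both replicate 1 pools, Olfr1048 was no longer called in odor. Of the 1075 other receptors, 386 were higher and 239 lower in vehicle and 387 and 235 in odor. The median sort difference was 1.72 in vehicle and 2.61 in odor over the 5 members, 0.41 and 0.47 over the other receptors, and 0.14 in both over all probe sets. The median of the 5 members is the value of Olfr1008, whose GFP- arrays were all under the floor. With every array raised to its floor it was 0.32 and 0.11, beside 0.09 and 0.10 for the other receptors. When each array was centred on its median, the median of all probe sets rose to 0.50 and 0.49, and the share of calls that were higher went from 37.2% to 83.7% in vehicle and from 35.6% to 83.2% in odor. Quantile normalization gave shares of 49% and 48%. After the centring all 5 MOR187 receptors were called higher in both treatments, beside 8986 of all 22206 probe sets in vehicle and 8534 in odor. The sort differences of the 5 receptors kept their direction under each of these scalings.

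Among the 1080 receptors ordered from the highest sort difference, Olfr1051 was at place 152 in vehicle and 56 in odor, Olfr1049 at 215 and 85, Olfr1008 at 274 and 144, Olfr1048 at 353 and 311, and Olfr1053 at 534 and 497. The confidence intervals of members adjacent in that order overlapped in vehicle for each of the pairs. These places rest on values under the floor for most members. With every array raised to its floor, Olfr1051 was at place 197 in vehicle and 119 in odor and Olfr1049 at 331 and 247. Olfr1048 (485 and 536) then came before Olfr1008 (529 and 556), and Olfr1053 was at 596 and 561.

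The odor differences within 1 fraction were smaller. In GFP+ cells, odor minus vehicle was 0.68 ± 0.47 (SE; interval -0.31 to 1.67) for Olfr1051, a 1.60-fold difference, and 0.66 ± 0.42 (-0.22 to 1.54) for Olfr1049, a 1.58-fold difference. It was 0.37 ± 0.32 (-0.30 to 1.04) for Olfr1008, -0.30 ± 0.46 (-1.27 to 0.68) for Olfr1048 and -0.07 ± 0.26 (-0.61 to 0.48) for Olfr1053. The vehicle and odor samples overlapped for all 5, and each interval included 0. Limma called 0 of the 5 members, 0 with an unadjusted p under 0.05, beside 0.00901% of all probe sets higher and 0% lower (2 and 0 of 22206; 869 at an unadjusted p under 0.05). Single pools moved these values. Olfr1051 was 0.34 without vehicle replicate 4 and 1.03 without odor replicate 4. Olfr1049 ran from 0.48 without vehicle replicate 3 to 0.96 without vehicle replicate 1, and Olfr1008 from 0.18 to 0.57 without the same pools. Olfr1048 was 0.21 without odor replicate 4. Without both replicate 1 pools, Olfr1049 was 0.92 and Olfr1051 0.86.

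In GFP- cells, odor minus vehicle was -0.47 ± 0.47 (SE) for Olfr1051, -0.52 ± 0.42 for Olfr1049, -0.53 ± 0.32 for Olfr1008, -0.61 ± 0.46 for Olfr1048 and -0.28 ± 0.26 for Olfr1053. All 5 values were below 0, while 11117 of all 22206 probe sets and 501 of the 1075 other receptors were above 0. All groups overlapped, and all intervals included 0. Overlap of groups is not given over all probe sets in any comparison. These are differences among values under the floor, apart from 2 vehicle arrays of Olfr1051. After raising arrays to their floor they were 0.12 for Olfr1051 and 0.16 for the other 4, which then carried the floor alone. Limma called 0 members, 0 with an unadjusted p under 0.05, beside 0% of all probe sets higher and 0% lower (547 at an unadjusted p under 0.05).

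**Figure D3:**
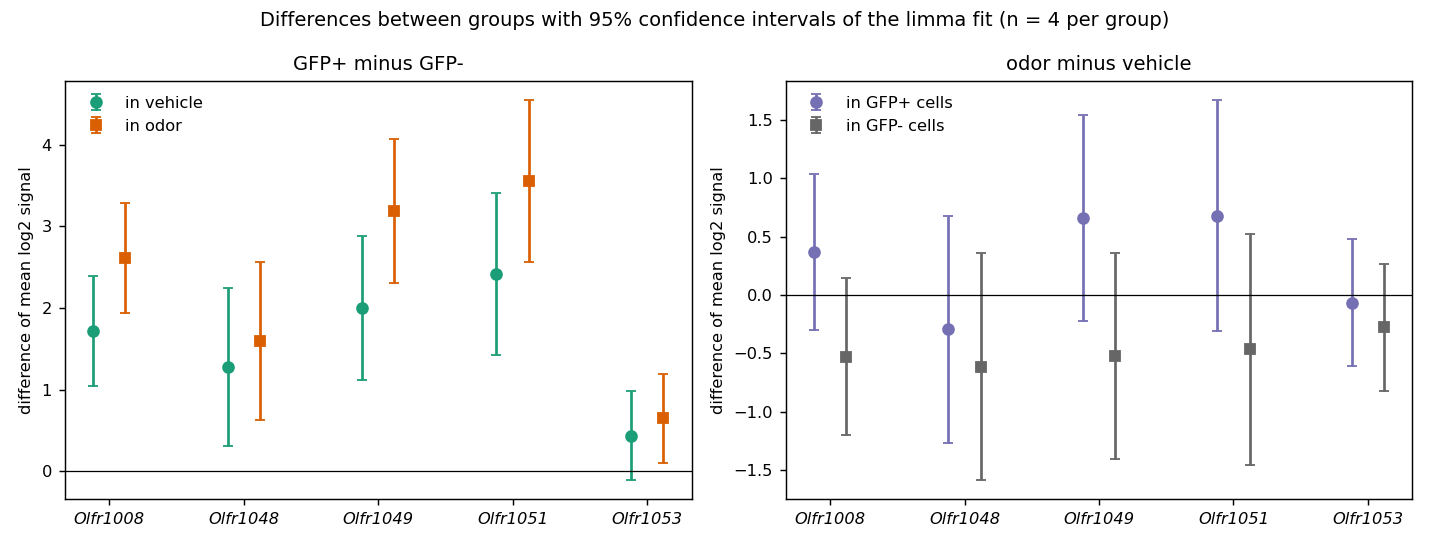
Differences of mean log2 signal (vertical axes) for each MOR187 receptor, on the left GFP+ minus GFP- in vehicle and odor pools, on the right odor minus vehicle in GFP+ and GFP- cells; bars are 95% confidence intervals of the limma fit with 4 arrays per group. On the left 9 of 10 intervals lie above 0, Olfr1053 in vehicle being the exception, and on the right all 10 include 0.

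The change of the sort difference with odor combines these values, since it uses the same 16 arrays. It was 1.18 ± 0.59 (SE; interval -0.06 to 2.43) for Olfr1049, 1.14 ± 0.67 (-0.26 to 2.55) for Olfr1051, 0.90 ± 0.45 (-0.05 to 1.85) for Olfr1008, 0.32 ± 0.65 (-1.05 to 1.69) for Olfr1048 and 0.21 ± 0.37 (-0.56 to 0.98) for Olfr1053. All 5 values were above 0, as were those of 11156 of all 22206 probe sets and 559 of the 1075 other receptors. All intervals of this fit, which has no term for the pool, included 0. With the pool as a fixed block the intervals of Olfr1049 (0.04 to 2.33) and Olfr1051 (0.15 to 2.14) lay above 0, and a random block for the pool put there those of Olfr1049 (0.04 to 2.33) and Olfr1008 (0.02 to 1.78). No member was called with either block. As the family was chosen on measured values, nothing is read from these intervals. Limma without a block called 0 of the 5, 0 with an unadjusted p under 0.05, beside 0.00901% of all probe sets higher and 0% lower (2 and 0 of 22206; 650 at an unadjusted p under 0.05). Olfr1049, Olfr1051 and Olfr1008 were at places 25, 28 and 56 of the 1080 receptors ordered from the highest change, and Olfr1048 and Olfr1053 at 293 and 370. With arrays raised to their floor the change was 0.50 for Olfr1049 and 0.56 for Olfr1051, and turned to -0.08 for Olfr1008 and -0.21 for Olfr1048. The places were then 129 for Olfr1049, 111 for Olfr1051, 698 for Olfr1008, 824 for Olfr1048 and 373 for Olfr1053. Single pools moved the change as well. Olfr1049 ran from 0.73 without vehicle replicate 3 to 1.65 without vehicle replicate 2, Olfr1051 from 0.66 without odor replicate 2 to 1.48 without odor replicate 4, and Olfr1008 from 0.62 without odor replicate 3 to 1.25 without vehicle replicate 2. Without both replicate 1 pools it was 1.52 for Olfr1049, 1.18 for Olfr1051 and 1.00 for Olfr1008.

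The receptors next to the family on the chromosome were read in the same fit, taking for each member up to 2 receptors of other families on each side, 9 in all. Olfr1052 (MOR172-1), which lies between Olfr1051 and Olfr1053, rose in GFP+ cells by 2.73 ± 0.26 in vehicle (SE; limma adjusted p = 4.06e-07) and 2.39 ± 0.26 in odor (2.11e-06). Its change with odor was -0.34 ± 0.37. Olfr1051 and Olfr1053 on either side of it had 1.14 and 0.21, and Olfr1049 had 1.18, all with intervals that included 0 in this fit. Olfr1056 (MOR186-2) rose by 1.45 ± 0.27 in vehicle (adjusted p = 0.000683) and 1.71 ± 0.27 in odor (0.00012). On the side of Olfr1048, Olfr1046 (MOR194-1) fell by 5.43 ± 0.34 in vehicle (limma adjusted p = 1.69e-09) and by 5.08 ± 0.34 in odor (3.95e-09). Its GFP+ signal was above the floor on 1 of 4 vehicle and 0 of 4 odor arrays, so the odor difference is a bound of at least 26.1-fold lower; in vehicle the untested fold with arrays raised to the floor was 28.8. Olfr1047 (MOR188-3, -1.17 and -1.21) and Olfr1054 (MOR188-2, 1.49 and 1.51) did not pass in either treatment. Neighbouring genes of this stretch thus had sort differences of both signs.

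Around Olfr1008, Olfr1009 (MOR175-3) rose in GFP+ cells by 3.54 ± 0.54 in vehicle (limma adjusted p = 8.77e-05) and 3.34 ± 0.54 in odor (0.000162), and Olfr1012 (MOR213-6) by 3.39 ± 0.56 (0.000199) and 3.55 ± 0.56 (0.000121). On its other side Olfr154 (MOR175-1) fell by 2.28 ± 0.36 in vehicle (adjusted p = 0.000129), with a difference of -1.40 ± 0.36 in odor (0.011), and Olfr1006 (MOR213-4) did not pass (2.20 and 1.96). Olfr154 was under the floor on all GFP+ arrays and above it on 3 of 4 vehicle and 1 of 4 odor GFP- arrays, so it was at least 1.49-fold lower in vehicle and has no fold in odor. In all, 4 of the 9 neighbours rose and 2 fell in GFP+ cells in both treatments, and 0 passed for odor in GFP+ cells or for the change of the sort difference (0 at an unadjusted p under 0.05 in both) or for odor in GFP- cells (1 at an unadjusted p under 0.05). Their median change with odor was 0.02, beside 0.90 for the MOR187 receptors, 0.06 for the 277 other receptors of chromosome 2 and 0.03 for the 1075 other receptors. The value of 0.90 is that of Olfr1008 and rests on arrays under the floor: with every array raised to its floor these medians were -0.08, 0.11, 0.11 and 0.09 in the same order. The 277 other chromosome 2 receptors had 104 higher and 63 lower in vehicle, with a median of 0.50, and 102 and 59 in odor, with a median of 0.61.

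**Figure D4:**
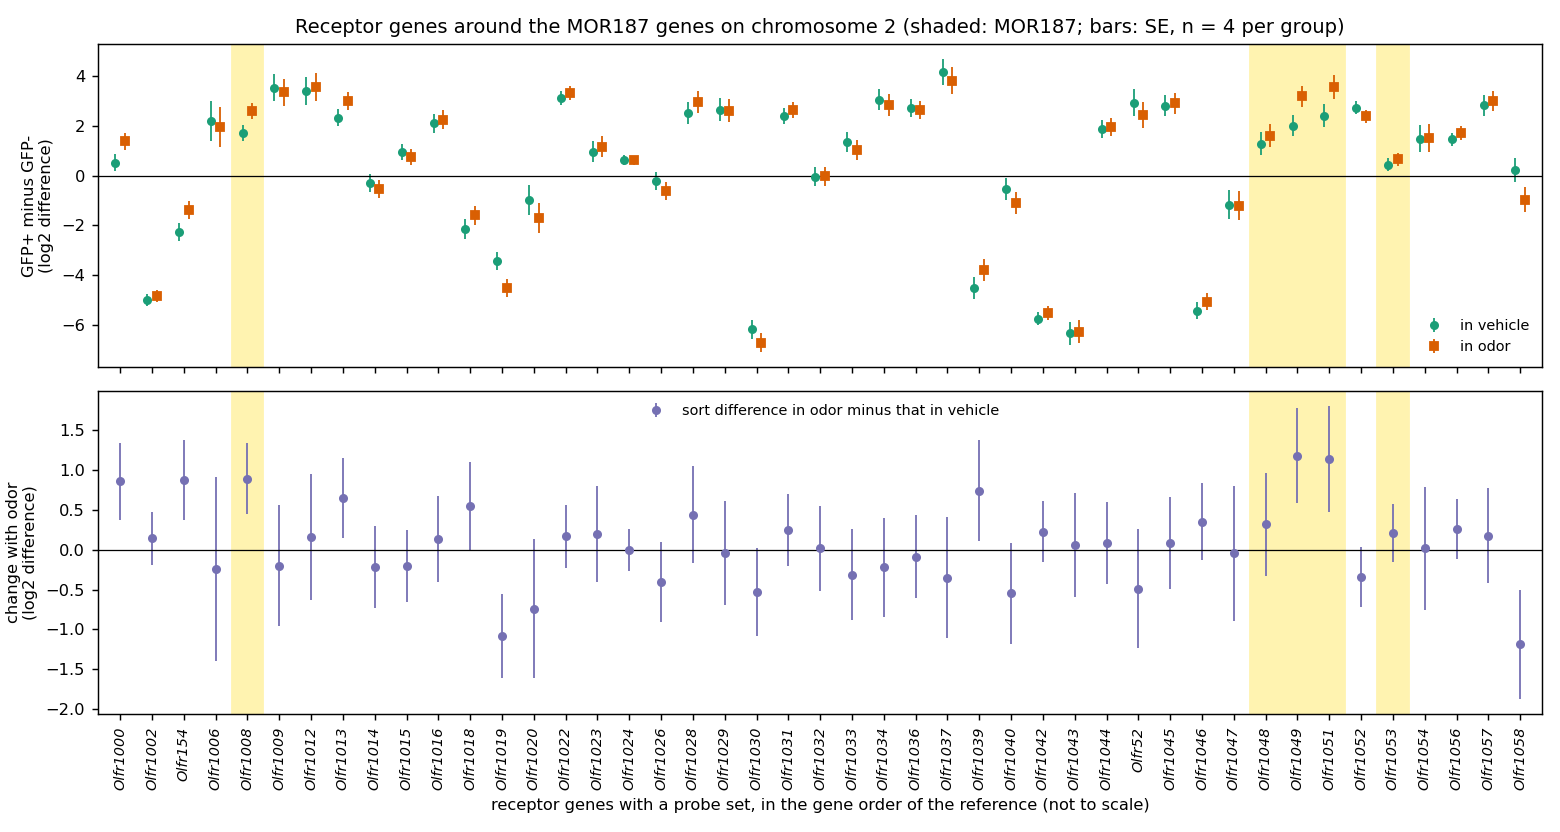
Log2 differences (vertical axes) of the 45 receptor genes around the MOR187 genes in the gene order of chromosome 2, with SE bars from the limma fit; above, GFP+ minus GFP- in vehicle and odor, and below, the change of that difference with odor. The 5 MOR187 receptors are shaded; the receptors around them have sort differences of both signs, from Olfr1043 at -6.34 to Olfr1037 at 4.17 in vehicle.

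Across the 16 arrays, Olfr1049 correlated with Olfr1008 at Pearson r = 0.94 and with Olfr1051 at 0.92, and Olfr1008 with Olfr1051 at 0.90. The other 7 pairs had r of 0.63 to 0.83. These points share the sort, which sets most of the spread, and r of the deviations from the group means was lower, from 0.14 (Olfr1008 and Olfr1053) to 0.68 (Olfr1048 and Olfr1051). It was 0.50 for Olfr1049 and Olfr1051, whose windows are near copies. The members also deviated together on some arrays. On replicate 1 arrays, 5 of the 5 were above their group mean in both vehicle fractions and in odor GFP- cells, and 4 in odor GFP+ cells. So were 5 on vehicle GFP- replicate 3. On replicate 4 it was 0 of 5 in GFP+ and 2 of 5 in GFP- cells, in both treatments. Over all probe sets, deviations of the 2 fractions correlated most in replicate 1 pools (r = 0.425 in odor and 0.352 in vehicle). Whether the joint deviation is particular to the members was not tested. Without both replicate 1 pools the sort differences were 2.37 and 3.54 for Olfr1051 in vehicle and odor, 1.81 and 3.33 for Olfr1049, and 1.65 and 2.65 for Olfr1008.

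The genes outside the family with the most similar pattern were ranked by Pearson r over the 16 arrays. For Olfr1051 these were Taf9b, a TFIID subunit gene (0.97), Olfr1497 (0.96) and Olfr1350 (0.96). For Olfr1049 they were Olfr43 (0.95), Olfr15 (0.95) and Olfr491 (0.94), and for Olfr1008 Pcdh7, a protocadherin gene (0.95), Olfr15 (0.95) and Olfr110 (0.95). For Olfr1048 they were Tspan12, a tetraspanin gene (0.93), Olfr734 (0.93) and Olfr402 (0.92), and for Olfr1053 Pmepa1 (0.93), Samd12 (0.89) and Zfp3 (0.88). Olfr1053 and Samd12 were under the floor on all 16 arrays, so that likeness is among background values. Olfr15, which was among the most similar for both Olfr1008 and Olfr1049, had sort differences of 3.86 in vehicle and 5.22 in odor, a change of 1.37. Taf9b had a sort difference of 0.39 in vehicle and 0.53 in odor, so likeness in pattern does not stand for likeness in size.

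Genes listed as acting with any odorant receptor, in signal transduction or receptor export, were counted in the same fit. Of 23 listed, 21 had a probe set, and 6 rose and 2 fell in GFP+ cells of vehicle pools. Those that rose included Slc8a1, a sodium-calcium exchanger, by 1.46 ± 0.33 (limma adjusted p = 0.00388), and Pde1c, a calcium-dependent phosphodiesterase, by 0.94 ± 0.18 (0.000946). Adcy3 (0.50), Ano2 (0.64), Slc24a4 (0.53) and Pde4a (0.68) rose as well, while Gnas, the stimulatory G protein subunit of immature neurons and other cells, fell by 4.68 and Grk3, a receptor kinase, fell by 1.26. In odor pools 5 rose, all of these but Adcy3, and the same 2 fell. With odor in GFP+ cells 1 rose, Camk2n1, an inhibitor of CaM kinase II, by 2.81 ± 0.35 (limma adjusted p = 0.00268), and 0 fell. For odor in GFP- cells and for the change of the sort difference 0 passed, with 1 at an unadjusted p under 0.05 in each. The median over the list was 0.23, 0.40, 0.03, -0.04 and 0.09 in the 5 comparisons, in the order vehicle sort, odor sort, odor in GFP+, odor in GFP- and change.

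Of 10 listed genes whose level in olfactory neurons follows activity, 9 had a probe set. Pcp4l1 (1.98), Lrrc3b (1.99), Pcdh10 (1.49) and Epha5 (1.21) rose in GFP+ cells of vehicle pools, as did S100a5, on whose reporter the cells were sorted. Kirrel3, an adhesion gene that inactive neurons express more, fell by 0.64, and Calb2, the calretinin gene, fell by 5.15. The same 5 rose and the same 2 fell in odor pools. In the comparisons of odor with vehicle 0 passed in either fraction (1 at an unadjusted p under 0.05 in each), and 0 for the change of the sort difference (0 at an unadjusted p under 0.05). Pcdh10 had 2.65 ± 0.50 in GFP+ cells (limma adjusted p = 0.164). The median over the list was 1.21 in both sort comparisons.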

How the data were processed

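RNA of GFP+ and GFP- cells from 8 pools was measured on 16 Clariom S mouse arrays, labelled from 50 to 100 ng of total RNA per the labels' protocols. Each probe set has 1 deposited log2 value per array. The authors used Affymetrix Expression Console, as the submitters' processing notes list; its version, how probes were summarised, and the genome build of the array are not stated there. Of 28846 probe sets, 6640 control rows were left out and 22206 were tested (19572 with a gene symbol in the platform annotation, 2634 without a name here). The number of arrays, 4 per group, limits the precision.

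R 4.3.3 and limma 3.58.1 (lmFit, eBayes) fitted 4 group means over 16 arrays with no covariate (12 residual degrees of freedom), with Benjamini-Hochberg adjustment over all probe sets and a threshold of 0.05. The SE and 95% confidence intervals are those of the moderated fit. The family's members, the gene lists and the comparisons were chosen with earlier results of these data known. Genes were named by rule: the 5 members, S100a5 and Omp, the 2 receptors on each side of a member, the 3 genes of highest Pearson r with each member, and genes of the transduction and activity lists. The part of the rule that uses protein identity was not applied, since protein sequences were not used here. Gene order, MOR names and windows came from RefSeq tables (GRCm38.p6). Windows were aligned with Biopython 1.88 and plots made with matplotlib 3.10.9.

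By the labels, the GFP+ and GFP- samples of a pool are cells of the same mice. Pearson r between the deviations of these paired arrays was 0.425, 0.0749, 0.161 and 0.109 in odor pools and 0.352, 0.0136, 0.0516 and 0.0837 in vehicle pools 1 to 4 (consensus 0.171). Alternatives were the pool or the replicate number as a block, quantile normalization over all arrays or within fractions, centring, filters on the lowest 20% or 40%, a trended robust prior, array weights, only the arrays compared, raising arrays to the floor, and each pool left out. Leaving out both replicate 1 pools was chosen after seeing the data.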

Additional observations from a re-analysis of the deposited data

Results flagged for a closer look

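In 38 groups of 4 values looked at, 3 had 1 value farther from the others than Dixon's 95% critical value allows for a gap as a share of the range; chance gives about 1 in 20 such groups. Olfr1049 in odor GFP+ cells had a gap of 0.835, from replicate 4 at 7.83 against 8.38 to 8.49 in the others. The sort difference of Olfr1051 in vehicle pools had 0.838, from pool 3 at 1.94 against 2.52 to 2.63. Omp in vehicle GFP+ cells had 0.893, from replicate 3.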

How the results depend on the processing

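Members called by limma ranged from 3 to 5 in vehicle and from 3 to 5 in odor over the alternatives that gave calls. These members were chosen with measured values in view, so nothing is read from how steady the counts are. For odor in either fraction and for the change of the sort difference, 0 were called in each alternative that gave calls for them. The fixed pool block has no such call for odor within a fraction, the fit of only the arrays compared has none for the change, and raising arrays to the floor was not tested. In vehicle the count was 5 with arrays centred on medians (3 as reported). Leaving out 1 pool at a time gave 3 to 4 in vehicle, 3 to 4 in odor and 0 to 0 elsewhere. With the replicate block, the paired counts were 4 in vehicle, 4 in odor and 0 in the other comparisons; same-numbered pools of the 2 treatments are not tied by the labels, and their deviations correlated at 0.419, 0.0996, 0.214 and 0.0492 in GFP+ cells and at 0.354, 0.0841, 0.031 and 0.214 in GFP- cells. Pool blocks changed no call other than those of Olfr1048 and Olfr1053 given above. Of 500 alternative values for single receptors, 15 moved beyond the spread, 14 of them when arrays were raised to the floor; the other was the odor sort difference of Olfr1053, 1.00 with centring. Raised this way, the vehicle sort difference of Olfr1053 was -0.10, and the background limits the size of the members' differences, except that of odor against vehicle in GFP+ cells for Olfr1049 and Olfr1051, whose arrays were all above it. Filters on the lowest 20% or 40% left Olfr1053 out. Over all probe sets, calls went from 3484 to 10736 in vehicle and from 3299 to 10258 in odor with centring. For odor in GFP+ cells the count was 2, against 5 with the replicate block and 1 with only the arrays compared. For odor in GFP- cells it was 0, against 1 with the replicate block, either quantile normalization, the 40% filter, the trended prior or array weights. For the change it was 2, against 0 or 1 with the fixed pool block, without any single pool or without both replicate 1 pools.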
